A study of Mus musculus with 6 samples.

Results

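The S100 genes encode small calcium-binding proteins, and 10 of them were followed here in bone marrow progenitors after deletion of Cebpa. S100a8 and S100a9 were chosen by their log2 differences, as strongly falling neutrophil genes, and S100a1, S100a3, S100a4, S100a5, S100a6, S100a10, S100a11 and S100a13 because they belong to the same family and lie on the same chromosome. Each gene was read from the array rows that name that gene alone, and where a gene had several rows the one with the highest mean over the 6 arrays was kept. All 10 genes were measured, of 19938 genes in all.

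The cells came from 3 mice with Cebpa fl/fl alleles and the Mx1Cre transgene, called deleted here, and from 3 mice with Cebpa fl/fl alleles alone, called control. All 6 mice received pIpC, a double-stranded RNA that induces interferon and thereby the Mx1 promoter that drives Cre, and were killed at day 18. Marrow was enriched for cKit+ cells and sorted for LSK CD150- cells, which lack lineage markers, carry Sca-1 and Kit, and contain multipotent progenitors with few long-term stem cells. The control mice lacked Cre, so carrying the transgene and losing Cebpa cannot be told apart. Each mouse had its own Affymetrix Mouse Gene 1.0 ST array (n = 3 per genotype), and values are on the log2 scale.

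S100 proteins carry a pair of EF-hands, helix-loop-helix motifs that bind calcium, and most act as dimers that grip a target protein once calcium is bound. S100A8 and S100A9 join into calprotectin, which fills the cytosol of neutrophils, withholds zinc and manganese from microbes and, once released, acts on receptors such as TLR4. C/EBPα, the transcription factor encoded by Cebpa, is required for the step that leads progenitors towards granulocytes. Most S100A genes lie together on mouse chromosome 3 next to the genes of the epidermal barrier.

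The promoters of S100a8, S100a9 and S100a4 are shown because S100a8 and S100a9 had the lowest values after deletion relative to their controls among the S100 genes, and S100a4 was the gene of the family that rose. Each runs 5′ to 3′ on the strand of its gene, from 250 bases before to 50 bases after the RefSeq start in GRCm38.p6. Capitals mark TATAAA, the letters of a TATA box, GGAAGT, a core bound by Ets factors such as PU.1, and TTGCNNAA, letters typical of C/EBP sites, each searched on both strands.

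S100a8, chr3:90668821-90669120, plus strand: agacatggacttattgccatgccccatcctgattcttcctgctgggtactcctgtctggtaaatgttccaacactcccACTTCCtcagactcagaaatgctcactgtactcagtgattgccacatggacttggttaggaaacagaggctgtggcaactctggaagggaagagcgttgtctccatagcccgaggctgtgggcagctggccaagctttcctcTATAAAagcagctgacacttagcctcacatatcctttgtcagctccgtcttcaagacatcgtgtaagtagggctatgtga

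S100a9, chr3:90695672-90695971, minus strand: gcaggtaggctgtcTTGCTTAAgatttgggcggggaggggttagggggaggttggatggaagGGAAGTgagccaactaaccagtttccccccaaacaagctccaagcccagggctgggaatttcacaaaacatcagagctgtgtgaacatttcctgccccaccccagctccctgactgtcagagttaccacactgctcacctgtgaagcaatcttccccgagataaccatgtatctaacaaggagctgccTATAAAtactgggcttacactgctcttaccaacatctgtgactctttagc

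S100a4, chr3:90603520-90603819, plus strand: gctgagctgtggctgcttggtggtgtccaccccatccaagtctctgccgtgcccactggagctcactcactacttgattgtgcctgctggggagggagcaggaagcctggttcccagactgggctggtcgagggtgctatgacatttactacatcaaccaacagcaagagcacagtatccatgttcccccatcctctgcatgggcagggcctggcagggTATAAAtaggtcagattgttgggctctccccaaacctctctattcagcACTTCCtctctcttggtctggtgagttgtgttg

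All 3 sequences held TATAAA, at -30 in S100a8, at 1 in S100a9 and at -31 in S100a4, counted from the RefSeq start as position 1. TATAAA was found in 13.6% of the 32851 promoters in the table. All 3 also held the Ets letters (23.8% of all promoters), which start at -172 in S100a8, at -188 in S100a9 and at 18 in S100a4. The C/EBP letters (10.8% of all promoters) were found in S100a9 as TTGCTTAA at -236 and not within the windows of S100a8 and S100a4. TGANTCA, the letters of an AP-1 site (7.81% of all promoters), was in none of the 3 and occurred at 2 places in the window of S100a11. Promoter sequences were found for 9 of the 10 members, with S100a10 not among them. Over the 12 windows of these 9 genes, the C/EBP letters occurred in 1 gene, the Ets letters in 6 and TATAAA in 4. These are counts of genes, of which S100a3 had 4 windows, whereas the shares above are of promoters. S100a1 and S100a13 lie head to head on opposite strands, and their windows overlap. The Ets letters at -137 in S100a1 and at 28 in S100a13 are the same bases, read on opposite strands.

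Arrays had medians of 6.16 to 6.20 in deleted samples and 6.22 to 6.23 in control samples. Genes were compared between the genotypes with limma, with p-values adjusted by the Benjamini-Hochberg method over all 19938 genes and a threshold of 0.05. Of all genes, 1.43% passed (0.702% higher and 0.732% lower after deletion), and the values of the genotypes did not overlap for 21.2%. The share of higher genes among those that passed was 49.0% with the deposited values, 61.6% once arrays were quantile normalized and 65.8% with the median of every array set equal. Cebpa itself averaged 6.09 ± 0.27 in deleted samples and 7.80 ± 0.06 in control samples (SD, n = 3 each). Whether its probes lie inside the deleted part is not known here, so its level checks the labels only in part. The mice are labelled female, but the Y-linked Kdm5d read 8.07 to 8.28 in deleted and 8.20 to 8.48 in control samples, and Xist read 4.64 to 5.02 and 4.46 to 5.13 in the same order, which goes against that label in both genotypes. Of the genes for the sort's markers, Kit read high (9.23 to 9.59 in deleted and 10.02 to 10.31 in control samples) and Slamf1, which encodes CD150, low (3.94 to 4.86 in deleted and 3.48 to 3.93 in control samples). Ly6a, which encodes Sca-1, was looked for, but no array row names that gene alone, so it gave no value here.

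S100a8 and S100a9 stood far below the control level in each deleted mouse. S100a8 read 5.03, 4.74 and 4.86 in deleted mice a, b and c, against 8.37, 8.22 and 8.58 in control mice a, b and c. S100a9 read 6.08, 5.86 and 5.50 in the deleted mice, against 9.45, 8.99 and 9.10 in the control mice. For both genes the genotypes were wide apart: the lowest control value exceeded the highest deleted value by 3.19 for S100a8 and by 2.91 for S100a9. The differences of the means were -3.51 and -3.37 on the log2 scale, which are 11.4-fold and 10.3-fold in deposited values. By size they ranked 2nd and 4th of all genes. Because the pair was chosen for this fall, these values are a description and no test is given for them.

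The deleted values of the calprotectin genes lay at the dim end of the array. Of 1027 olfactory receptor genes, which blood progenitors are not known to use and which give a rough level of background, the means over deleted arrays ran from 3.26 at the 5th percentile through a median of 4.39 to 6.11 at the 95th. S100a8 at 4.88 ± 0.15 and S100a9 at 5.81 ± 0.30 (SD, n = 3 each) in deleted samples both fell inside that range. In control samples, S100a8 at 8.39 ± 0.18 and S100a9 at 9.18 ± 0.24 (SD, n = 3 each) stood above the control 95th percentile of those genes, 6.10. Among all rows of the array, S100a8 lay above 24.4% of rows in deleted samples and 85.3% in control samples, and S100a9 above 42.2% and 91.0%. A level near background bounds what the array can show, so the folds are those of the deposited values. An array reads all sorted cells of a mouse at once, so fewer cells that express a gene and less RNA per cell cannot be told apart.

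Within a genotype the pair ordered the mice alike only in part, which was not tested with 3 mice each. Deleted a was the highest deleted mouse and control b the lowest control mouse for both genes. The highest control value was that of mouse c for S100a8 and that of mouse a for S100a9, and the lowest deleted value was that of mouse b for S100a8 and that of mouse c for S100a9.

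**Figure D1:**
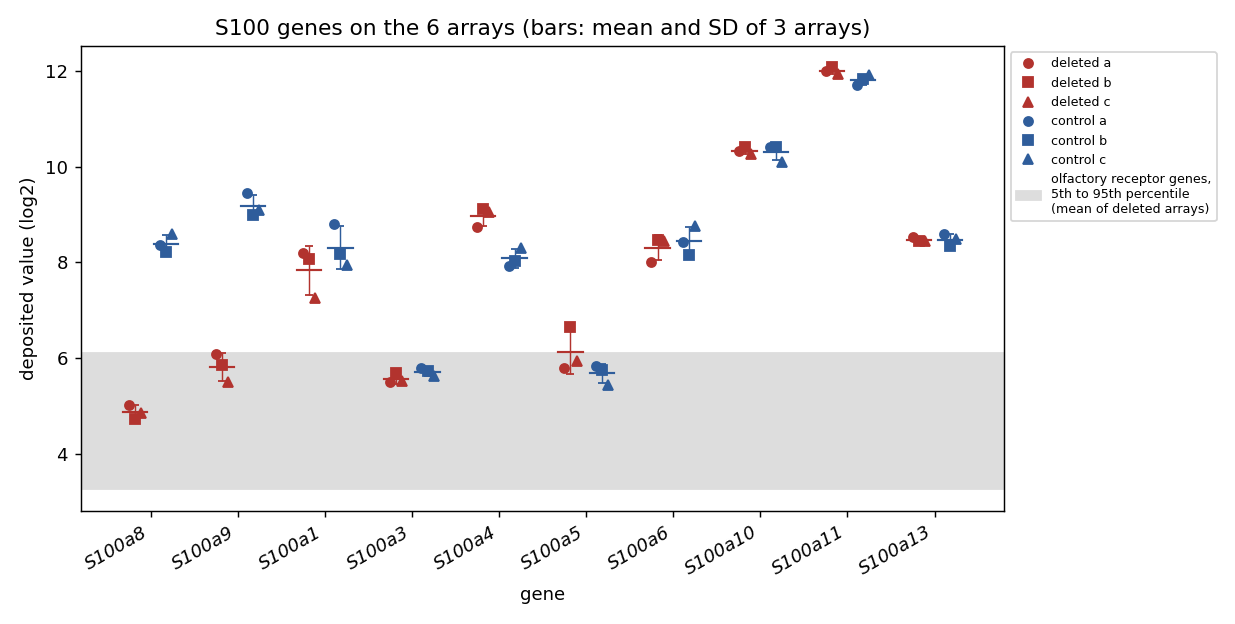
Deposited log2 values (vertical axis) of the 10 S100 genes (horizontal axis) on each array, with deleted mice in red left of control mice in blue, the bars giving the mean and SD of 3 arrays and the grey band the 5th to 95th percentile of olfactory receptor genes on deleted arrays (3.26 to 6.11). S100a8 and S100a9 lie inside the band in deleted mice and well above it in control mice, and S100a4 is higher in every deleted mouse than in any control mouse.

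S100a4, whose protein binds non-muscle myosin and is known from motile and mesenchymal cells as well as from leukocytes, moved the opposite way. It read 8.74, 9.12 and 9.06 in deleted mice a, b and c, against 7.92, 8.04 and 8.30 in control mice a, b and c. The lowest deleted value exceeded the highest control value by 0.44. S100a4 rose 1.85-fold (95% interval 1.48 to 2.30), from the log2 difference of 0.89 ± 0.14 (SE), with a limma adjusted p of 0.0200. It was the 1 gene of the 8 members not chosen for their change that passed, beside 1.43% of all genes, and its difference ranked 140th by size. The call held under each of 10 other settings of the fit, including 3 other scalings (limma adjusted p 0.0139 to 0.0278). It was lost when control a (adjusted p = 0.0672), control b (0.0859), deleted b (0.0849) or deleted c (0.0678) was left out, with log2 differences of 0.80 to 1.00 over all 6 such fits.

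The other 7 members did not pass, with limma adjusted p-values of 0.342 to 0.994. The median log2 difference of the 8 members was 0.01, against 0.03 for all genes. Non-overlapping genotypes occurred for 2 of the 8, S100a4 and S100a11, beside 21.2% of all genes (12.5% higher and 8.68% lower after deletion).

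S100a10 and S100a11 encode proteins that bind annexins: S100A10 binds annexin A2, and S100A11 binds annexin A1. S100a10 read 10.33, 10.40 and 10.26 in deleted mice and 10.40, 10.40 and 10.11 in control mice, with a log2 difference of 0.03 (95% interval -0.23 to 0.29). The genotypes overlapped fully. S100a11 read 11.996, 12.08 and 11.94 in deleted mice and 11.70, 11.83 and 11.91 in control mice, with a difference of 0.19 (95% interval -0.04 to 0.43, limma adjusted p = 0.418). Its genotypes did not overlap, but only 0.03 separated them. The dimmer row that also names S100a11 gave 11.55, 11.66 and 11.48 in deleted mice and 11.25, 11.34 and 11.42 in control mice, a difference of 0.23. Only S100a11 had more than 1 row among the members.

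S100a6, calcyclin, is a gene of proliferating cells, and S100a13 serves the release of proteins such as FGF1 that lack a signal sequence. S100a6 read 8.01, 8.47 and 8.44 in deleted mice and 8.42, 8.16 and 8.76 in control mice, with a difference of -0.13 (95% interval -0.53 to 0.26). S100a13 read 8.53, 8.46 and 8.44 in deleted mice and 8.59, 8.35 and 8.49 in control mice, with a difference of -0.0022 (95% interval -0.24 to 0.23). For both genes the deleted and control mice were interleaved. The intervals leave room for changes of up to 0.53 and 0.24 on the log2 scale in the downward direction.

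S100a1, best known from the calcium handling of heart muscle, varied most among the well-measured members. It read 8.19, 8.08 and 7.25 in deleted mice and 8.81, 8.17 and 7.95 in control mice. The genotypes overlapped, and the difference of -0.47 (95% interval -1.08 to 0.14) did not pass (limma adjusted p = 0.445). It was -0.18 without deleted c and -0.22 without control a. S100a5, described from olfactory neurons, read 5.79, 6.64 and 5.95 in deleted mice and 5.85, 5.75 and 5.45 in control mice. Deleted b alone stood apart, and the difference of 0.44 (95% interval -0.02 to 0.91) did not pass (limma adjusted p = 0.342). Without deleted b the difference was 0.19. S100a3, a protein of the hair cuticle, read 5.50, 5.70 and 5.53 in deleted mice and 5.80, 5.73 and 5.63 in control mice, all below the median of all values on the 6 arrays, with a difference of -0.14 (95% interval -0.38 to 0.09).

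In the gene order of chromosome 3 the S100a8 and S100a9 genes are direct neighbours among measured genes, and S100a4 lies 4 places before S100a8, with S100a5, S100a6 and S100a7a between them. None of these 3 passed: S100a7a, a gene of inflamed skin, had a log2 difference of 0.07 (95% interval -0.18 to 0.31). From S100a1 to S100a10, 14 S100 genes and 48 other genes were measured, with genes of the skin barrier such as Lor, loricrin, among the others. Of the 48 others, none passed limma in either direction and 7 had an unadjusted p under 0.05, beside 15.9% of all genes. The genotypes of 7 did not overlap, beside 21.2% of all genes. Their log2 differences ran from -0.36 to 0.47 with a median of 0.10, and 39 of the 48 lay below the median of all values in both genotypes, where a difference is hard to see. Of the 10 measured genes before and the 10 after the cluster, none passed limma, with 2 and 2 at an unadjusted p under 0.05 and differences from -0.41 to 0.25 and from -0.49 to 0.61. The difference of these neighbours from S100a8 and S100a9 was not tested, since that pair was chosen for its fall.

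**Figure D2:**
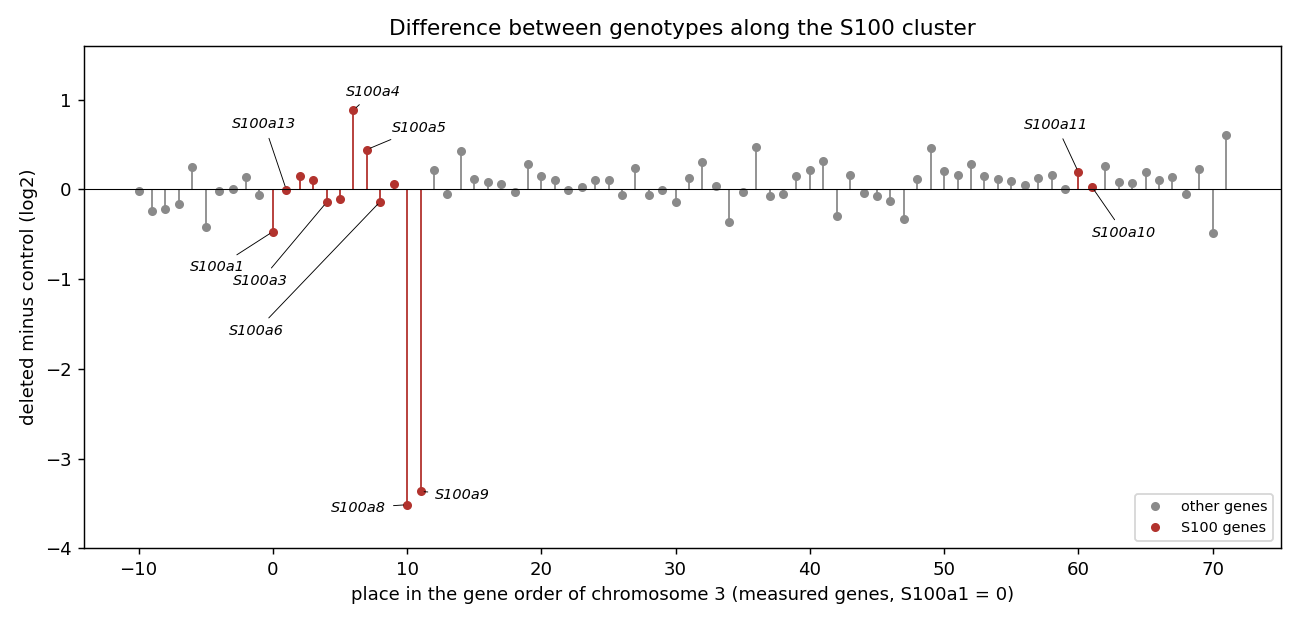
Log2 difference, deleted minus control (vertical axis), of the measured genes of chromosome 3 in their order (horizontal axis), from 10 genes before S100a1 to 10 genes after S100a10, with S100 genes in red and the others in grey. S100a8 and S100a9 reach -3.51 and -3.37, S100a4 reaches 0.89, and the other genes between S100a1 and S100a10 stay between -0.47 and 0.47.

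Of the wider family, 13 of 18 listed genes were measured, among them S100a2, S100a14, S100a16, S100b, S100g and S100z and the fused S100 proteins of skin such as Hrnr and Tchh. None passed limma in either direction, beside 1.43% of all genes, and 0 had an unadjusted p under 0.05. S100g, an intestinal calcium buffer, read 6.79 ± 0.11 in deleted and 7.03 ± 0.11 in control samples (SD, n = 3 each), with a log2 difference of -0.24 ± 0.11 (SE, limma adjusted p = 0.326). The median difference of the 13 was 0.11, and 9 of them lay below the median of all values in both genotypes. Of 25 measured genes for other EF-hand proteins, such as calmodulins, calpains, plastin and myosin light chains, none passed limma, and 6 had an unadjusted p under 0.05, beside 15.9% of all genes (median difference 0.08).

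Among genes for proteins that S100 proteins bind or act through, 3 of 31 fell (Alcam, Cyba and Anxa1, beside 0.732% of all genes) and none rose (0.702%). The median of the 31 was -0.10, against 0.03 for all genes. Of the 31, 10 had an unadjusted limma p under 0.05 (15.9% of all genes) and 13 had non-overlapping genotypes (21.2%). Alcam, an adhesion molecule reported as a receptor of calprotectin in human cells, read 7.70, 7.97 and 8.12 in deleted mice and 8.78, 9.01 and 8.82 in control mice, with a log2 difference of -0.94 ± 0.13 (SE, limma adjusted p = 0.0119). The call was lost without control b (adjusted p = 0.0564). Cyba, the p22phox subunit of the phagocyte NADPH oxidase, to which calprotectin delivers arachidonic acid in neutrophils, read 7.11, 7.01 and 6.81 in deleted mice and 7.57, 8.18 and 7.80 in control mice. Its log2 difference was -0.88 ± 0.16 (SE, limma adjusted p = 0.0334), and the call was lost without any array other than control a (adjusted p up to 0.101). Anxa1, which encodes annexin A1, read 7.12, 7.40 and 7.42 in deleted mice and 7.81, 7.97 and 7.97 in control mice, with a log2 difference of -0.61 ± 0.12 (SE, limma adjusted p = 0.0409). The call was lost after quantile normalization (adjusted p = 0.0551) and without any single array (up to 0.139). In each of these 3 genes every deleted mouse was below every control mouse.

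Other binding partners and receptors did not pass. Anxa2, the partner of S100A10, had a log2 difference of -0.59 ± 0.17 (SE, limma adjusted p = 0.126). Myh9, the non-muscle myosin heavy chain that S100A4 binds, had a difference of 0.24 ± 0.12 (SE, adjusted p = 0.379). Cacybp, whose protein binds calcyclin, had a difference of 0.41 ± 0.10 (SE, adjusted p = 0.0801). The calprotectin receptor genes Tlr4 (-0.30 ± 0.12 SE, adjusted p = 0.254), Cd36 (0.16 ± 0.13), Bsg (-0.07 ± 0.10) and Ager (-0.10 ± 0.10, in each case SE) did not pass either, nor did Cybb, the catalytic partner of p22phox, which read low in both genotypes (4.89 ± 0.11 in deleted, 5.08 ± 0.16 in control samples, SD, n = 3 each).

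**Figure D3:**
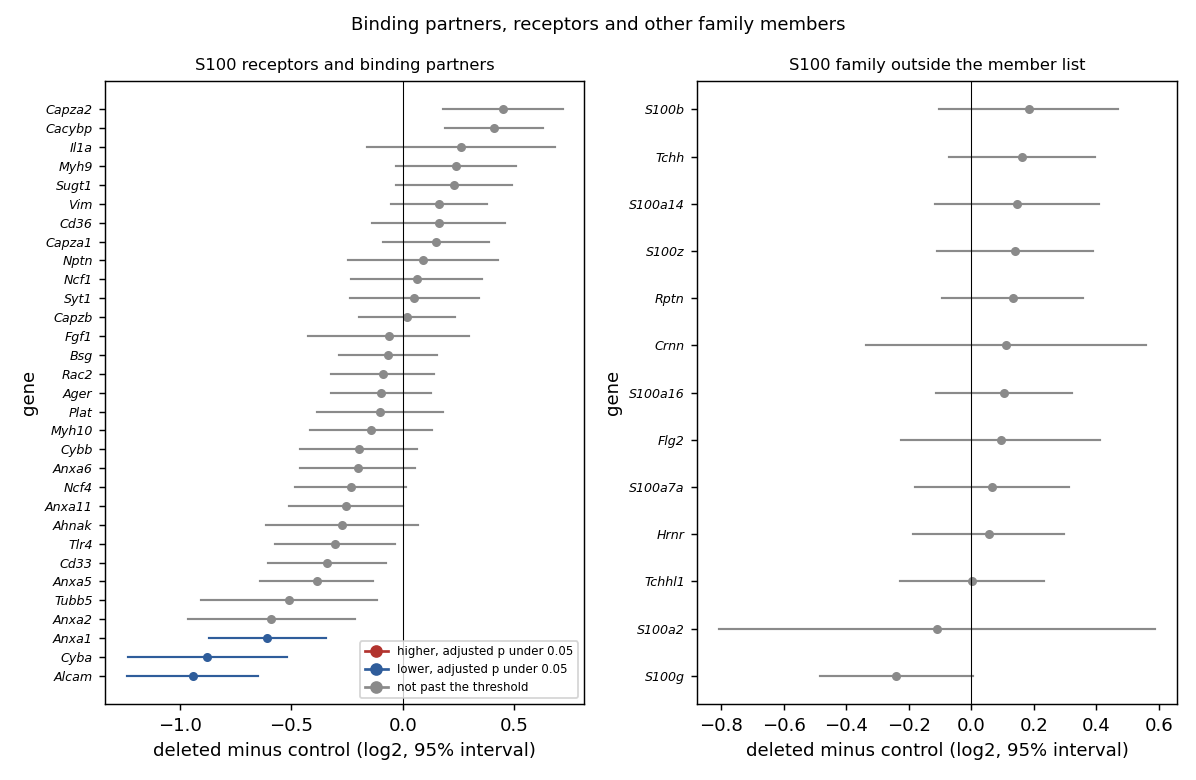
Log2 differences, deleted minus control, with 95% intervals from limma (horizontal axis) of 31 genes for S100 receptors and binding partners (left) and 13 further S100 family genes (right), blue where an adjusted p under 0.05 went with a lower level. Alcam, Cyba and Anxa1 are lower after deletion, and none of the 13 family genes passed.

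Since calprotectin is a neutrophil product, the other neutrophil genes were read beside it. Of 27 measured genes of secondary granules and mature neutrophils, 2 fell (0.732% of all genes) and 1 rose (0.702% of all genes), with a median difference of -0.03. An unadjusted limma p under 0.05 occurred for 8 of the 27 (15.9% of all genes), and the genotypes of 10 did not overlap (21.2%). Csf3r, the G-CSF receptor, had a log2 difference of -1.09 ± 0.20 (SE, limma adjusted p = 0.0376), and Camp, the cathelicidin, one of -0.97 ± 0.16 (SE, adjusted p = 0.0230), while Clec4d, a lectin receptor, rose by 0.86 ± 0.13 (SE, adjusted p = 0.0147). All 3 calls were lost without control a, deleted b or deleted c, those of Csf3r and Clec4d also without control b, and those of Csf3r and Camp also without control c (limma adjusted p 0.0502 to 0.130). The mean of the list was 5.34 to 5.42 in deleted and 5.48 to 5.51 in control samples, and 20 of the 27 genes lay below the median of all values in both genotypes. Of the 8 defining markers of mature neutrophils, Ly6g read 3.54 to 3.71 in deleted and 3.49 to 4.76 in control samples, and Ltf, Lcn2, Mmp8 and Retnlg also stayed below the 95th percentile of the olfactory receptor genes on every array, with highest values of 5.25, 5.24, 4.998 and 5.14 in deleted and 5.30, 5.51, 4.85 and 5.10 in control samples. Ngp reached 5.42 in deleted and 6.24 in control samples. Cd177 read 6.20 to 6.54 in deleted and 6.37 to 6.57 in control samples, and Camp 5.95 to 6.29 in deleted and 6.74 to 7.31 in control samples. Over the whole list, the mean of 6 of the 27 genes in deleted samples and of 7 in control samples exceeded that percentile, among them Csf3r (7.03 ± 0.46 and 8.12 ± 0.15, SD, n = 3 each) and Pglyrp1, a bactericidal granule protein (7.62 ± 0.14 in deleted and 8.20 ± 0.31 in control samples, SD, n = 3 each, limma adjusted p = 0.115). The part of neutrophil RNA in the S100a8 and S100a9 values was not tested.

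Of 12 measured primary granule genes, 1 fell and 2 rose, beside the same 0.732% and 0.702% of all genes, with a median difference of -0.13. An unadjusted limma p under 0.05 occurred for 8 of the 12, beside 15.9% of all genes. The genotypes of 8 did not overlap (3 higher and 5 lower after deletion), beside 21.2% of all genes. Lyz1 had a log2 difference of -0.57 ± 0.11 (SE, limma adjusted p = 0.0374), and its call was lost whichever single array was left out (adjusted p up to 0.110). Cst7, the cystatin F of granules, rose by 2.11 ± 0.16 (SE, adjusted p = 0.000744), and Serpinb1a by 0.64 ± 0.10 (SE, adjusted p = 0.0151), whose call was lost when deleted b, deleted c, control a or control b was left out (up to 0.0664). Mpo, myeloperoxidase, read 11.39 ± 0.40 in deleted and 11.14 ± 0.27 in control samples (SD, n = 3 each) and did not pass (adjusted p = 0.616). Elane, Prtn3, Prss57 and Lyz2 did not pass either (limma adjusted p 0.103 to 0.269). Their log2 differences were -0.57, -0.31, -0.36 and -0.39, with every deleted mouse below every control mouse. Ctsg went the other way, at 0.26 (limma adjusted p = 0.297), with every deleted mouse above every control mouse. Nkg7 was at 0.15 with overlapping genotypes (adjusted p = 0.705). Of the 12 log2 differences, 7 were below 0 and 5 above, Mpo, Ctsg and Nkg7 among the latter. The mean of the list was 7.87 to 8.04 in deleted and 7.80 to 7.91 in control samples.

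Genes of other cell types were also counted, against a share of called genes over the whole array of 1.43% (0.732% lower and 0.702% higher). Of 13 monocyte genes Cd68 fell (log2 difference -0.90 ± 0.10 SE, limma adjusted p = 0.00520) and none rose. None of the 8 B cell, 7 T and NK cell or 5 erythroid genes passed limma, with 1, 1 and 0 at an unadjusted p under 0.05. Of 7 megakaryocyte and mast cell genes Cpa3 rose by 3.47 ± 0.12 (SE, adjusted p = 2.2e-06). Of 5 stem and progenitor marker genes, among which the sort used the products of Kit and Slamf1, Cd48 rose by 1.00 and Kit and Flt3 had differences of -0.75 and -0.71 (adjusted p = 0.00520, 0.0270 and 0.0469). Among 5 measured C/EBP genes, Cebpa fell and Cebpg (0.73 ± 0.12 SE, adjusted p = 0.0240) and Cebpd (0.55 ± 0.10 SE, adjusted p = 0.0336) rose. An unadjusted limma p under 0.05 occurred for 2 of the 13 monocyte and 3 of the 7 megakaryocyte and mast cell genes. The same held for all 5 stem and progenitor marker genes and 4 of the 5 C/EBP genes, beside 15.9% of all genes. The calls of Kit, Flt3, Cebpg and Cebpd were each lost without control b (limma adjusted p = 0.101, 0.145, 0.0881 and 0.120) and without deleted b (0.0978, 0.136, 0.0631 and 0.102), and in 2 or more of the other 4 fits that left out an array. That of Flt3 was also lost under each of the 3 other scalings (0.0511 to 0.0581). The part of these shifts in the S100 values was not tested.

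**Figure D4:**
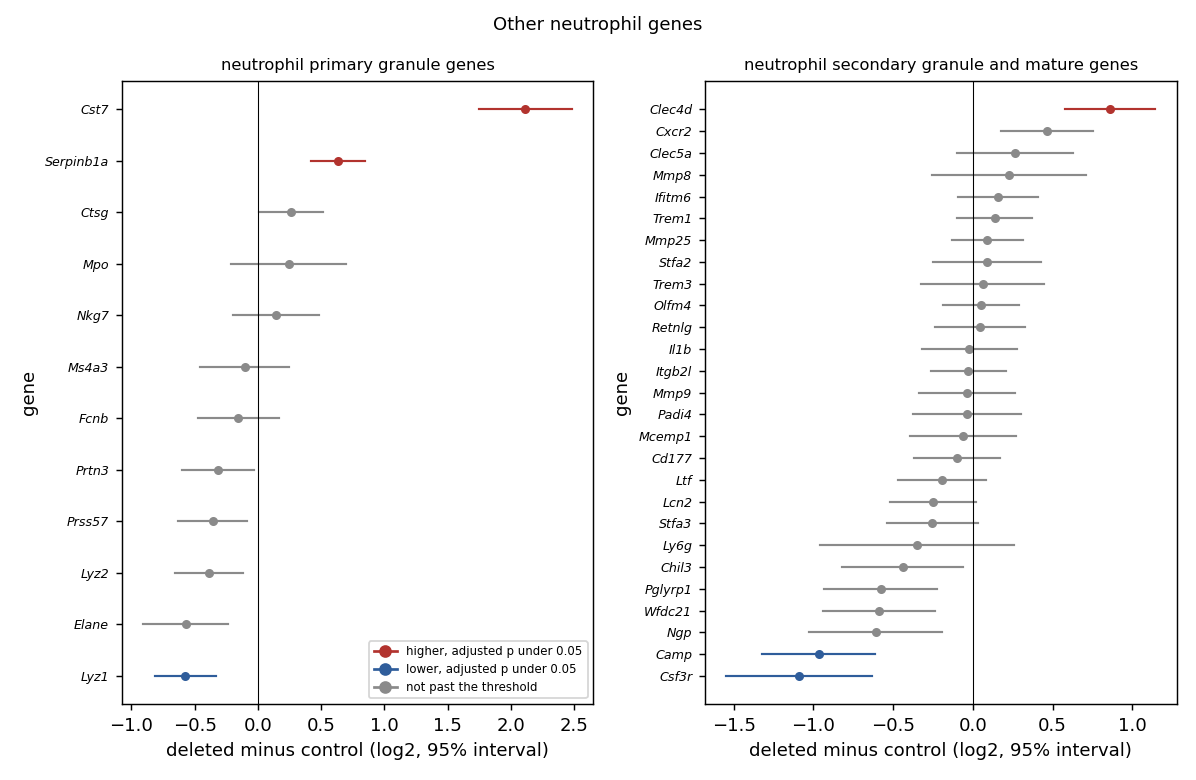
Log2 differences, deleted minus control, with 95% intervals from limma (horizontal axis) of 12 primary granule genes (left) and 27 genes of secondary granules and mature neutrophils (right), red where higher and blue where lower at an adjusted p under 0.05. Cst7, at 2.11, and Csf3r, at -1.09, mark the ends, with Lyz1, Camp and Csf3r lower and Cst7, Serpinb1a and Clec4d higher.

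The genes whose profiles were most like the mean of S100a8 and S100a9 over the 6 arrays were Cebpa (root mean square difference 0.88 on the log2 scale after centring), the glutathione transferase gene Gsta4 (0.90), Tmem243 (0.97), the cytochrome gene Cyp2j6 (0.97) and the transcription factor gene Etv5 (0.98). Their log2 differences between genotypes, -1.71, -1.84, -1.60, -1.58 and -1.53, were each smaller in size than those of S100a8 and S100a9, and each gene was above the median of all values in every control mouse. With 3 mice per genotype, the likeness rests mainly on the difference between the genotypes.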

How the data were processed

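Sorted cells of 6 mice were read on 1 array each. Whole-transcriptome amplification from 20 ng RNA, per the labels' protocols, can alter relative levels. The values the authors deposited are log2 intensities of probe sets. The submitters' processing notes name RMA and Affymetrix Expression Console (version 1.1.2), without settings or build. Values of the 35556 rows were not rescaled, and the number of arrays limits precision.

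Rows naming 1 gene in the platform annotation (21789 rows, 19938 genes) were used, with the brightest row of the 999 genes that have several. The genotypes were compared with limma 3.58.1 (lmFit and eBayes, 5.52 prior degrees of freedom, two-sided, Benjamini-Hochberg over all genes, no filter) in R 4.3.3, tested on simulated data. Each log2 difference is deleted minus control. Separate animals are replicates, as the series' design text states. Promoters are from RefSeq, GRCm38.p6, whose gene table gave gene order only. Lists and motifs used Python 3.11.15.

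Members and lists were chosen with earlier results of these data known. Genes named are the members, measured family genes, list genes past the threshold and their partners, defining markers, and the 5 most similar profiles, leaving out microRNAs, small nucleolar RNAs, predicted genes and receptor segments. Tlr4, Cd36, Bsg, Ager, Cybb, Anxa2, Myh9, Cacybp, Mpo, Pglyrp1, Lor, Kdm5d and Xist were named for their role after their values were seen. Elane, Prtn3, Prss57, Lyz2, Ctsg and Nkg7 were also named after their values were seen. Alternatives were an intensity trend, a robust prior, filters at the 25th percentile and median, 3 normalizations, the mean of a gene's rows, the title letters as a block, array weights and leaving out each array.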

Additional observations from a re-analysis of the deposited data

How the results depend on the processing

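The log2 differences of S100a8 and S100a9 ran from -3.60 to -3.42 and from -3.50 to -3.21 over the 16 alternatives. The intensity trend, robust prior, filters, mean of a gene's rows and letter block cannot change these differences, which stayed at -3.51 and -3.37. Leaving out 1 array can shift a group mean only by less than the spread between replicates, so those fits had to stay within it. Under the normalizations and array weights, which had no such limit, S100a8 ran from -3.53 to -3.47 and S100a9 from -3.35 to -3.32. These moves were smaller than that spread. The count of genes that passed, 286, became 438 among genes at or above the median intensity, where fewer genes were tested, and 53 to 250 when 1 array was left out (53 without control b, 84 without deleted b, 126 without control a, 143 without deleted c, 145 without deleted a), where fewer samples were used. Of the 8 members not chosen for their change, 1 passed, and 0 to 1 when 1 array was left out. Of the listed genes, 17 passed, and 6 to 11 when 1 array was left out. Whether the letters a, b and c in the titles pair the arrays is not known here. Correlations of same-letter deviations were -0.01, -0.04 and 0.06, within those of unlike letters (-0.10 to 0.11). Such correlations over all genes cannot show that the mice were not paired. With the letters as a replicate block 274 genes passed, and the calls of Cebpd and Lyz1 were lost (adjusted p = 0.0579 and 0.0532).

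Differences near 0 changed sign. That of S100a13, -0.0022, became 0.0199 after quantile normalization, 0.0457 after median centring and 0.0023 with array weights, and ran from -0.0668 to 0.0551 with 1 array left out. That of S100a6 ran from -0.277 to 0.0205 and that of S100a10 from -0.0684 to 0.0790 with 1 array left out. None of these was called in any fit. The deposited values give no measure of signal over background per probe, so a fall to the dim end, as for S100a8, is read from the intensities alone.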
